A study of Mus musculus with 167 samples.

Results

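The 8 genes described here are transcripts that mouse neutrophils and related myeloid cells carry, taken by name out of the 39179 genes of a liver RNA-seq series: S100a8, S100a9, Retnlg, Ngp, Camp, Ltf, Mmp9 and Itgam. All 8 had a row in the table. The series followed an allelic series of Htt, the mouse gene of the protein altered in Huntington's disease, over 3 ages in polyA RNA of flash-frozen liver. Wild-type (WT) mice were compared with heterozygous knock-in mice whose single altered allele carried a CAG repeat named by its length: Q20, Q80, Q92, Q111, Q140 or Q175. Each genotype was sampled at 2, 6 and 10 months, giving 21 groups, with 8 mice in a group except 7 in Q80 at 10 months. Groups held 4 females and 4 males, except that Q80 held 3 females and 5 males at 2 months and 4 females and 3 males at 10 months. Sex is as labelled; the library name of the Q80 male M5 of 2 months carries a code that the 3 females share and the other 4 males do not. All mice were of strain C57BL/6. Per the labels, WT mice were housed with Q20 mice and the mice of each knock-in allele with their own kind. Q20 carries a short repeat and is the knock-in control for the longer alleles. Females are named F1 to F4 and males M1 to M5 within a group, and each library is 1 mouse, as far as the labels show.

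Neutrophils are short-lived granulocytes that are made in bone marrow, circulate in blood and are drawn into tissue by chemokines and complement. Their precursors load granules in waves: primary granules with myeloperoxidase and serine proteases, then secondary granules with lactoferrin and cathelicidin, then gelatinase granules, while calprotectin fills the cytosol of the mature cell. In an uninflamed liver a few neutrophils lie in the sinusoids beside the resident macrophages, the Kupffer cells, and their number rises with inflammation or in bacterial infection. The precursors' genes Mpo, Elane and Ngp are transcribed before the cell leaves the marrow, so granule transcripts and calprotectin transcripts mark different stages.

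S100a8 and S100a9 encode the calcium-binding subunits of calprotectin. Retnlg encodes a resistin-like hormone that mouse neutrophils express. Ngp (neutrophilic granule protein), Camp (the cathelicidin antimicrobial peptide) and Ltf (the iron-binding lactoferrin) are secondary granule proteins, and Ltf is also secreted by glandular epithelia. Mmp9 is the gelatinase of the tertiary granules, and Itgam is the integrin chain CD11b, which monocytes and macrophages carry as well. In GENCODE M21 (GRCm38), which supplied the names, all 8 are protein-coding. S100a8 (ENSMUSG00000056054, plus strand, 90668978 to 90670035) and S100a9 (ENSMUSG00000056071, minus strand, 90692632 to 90695721) are neighbours on chromosome 3. Camp (ENSMUSG00000038357, minus strand, 109847379 to 109849617), Ngp (ENSMUSG00000032484, plus strand, 110419747 to 110423012) and Ltf (ENSMUSG00000032496, plus strand, 111019271 to 111042767) lie on chromosome 9. Retnlg (ENSMUSG00000022651) is at 48872621 to 48874496 on the plus strand of chromosome 16. Mmp9 (ENSMUSG00000017737) is at 164940780 to 164955850 on the plus strand of chromosome 2, and Itgam (ENSMUSG00000030786) at 128062640 to 128118491 on the plus strand of chromosome 7. The build that the counts were made on is not given in the sources used here, so these positions come from the annotation alone.

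The 250 bases before the RefSeq start are shown for the calprotectin pair, whose levels went together, and for Ngp and Itgam, which had the lowest fold change and the smallest adjusted p at 6 months. RefSeq (GRCm38.p6) gave such a window for 7 of the 8 genes, and none was used here for Mmp9. Capitals mark matches to TTNNGNAA, a form of the site bound by C/EBP factors, or to GAGGAA, the core bound by PU.1, on either strand; no match of the first shared a base with one of the second. Each line reads 5′ to 3′ on the gene's strand, from chr3:90668821-90669070 (+), chr3:90695722-90695971 (−), chr9:110419558-110419807 (+) and chr7:128062390-128062639 (+) in that order.
S100a8: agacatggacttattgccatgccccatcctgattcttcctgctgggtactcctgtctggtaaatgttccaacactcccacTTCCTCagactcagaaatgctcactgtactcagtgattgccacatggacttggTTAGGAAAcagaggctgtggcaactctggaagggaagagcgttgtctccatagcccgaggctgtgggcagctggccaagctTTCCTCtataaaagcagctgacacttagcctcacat
S100a9: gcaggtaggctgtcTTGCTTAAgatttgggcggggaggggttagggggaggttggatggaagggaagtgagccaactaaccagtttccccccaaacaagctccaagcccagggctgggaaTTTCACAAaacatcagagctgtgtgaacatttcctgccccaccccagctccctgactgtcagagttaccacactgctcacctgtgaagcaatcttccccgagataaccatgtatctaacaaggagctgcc
Ngp: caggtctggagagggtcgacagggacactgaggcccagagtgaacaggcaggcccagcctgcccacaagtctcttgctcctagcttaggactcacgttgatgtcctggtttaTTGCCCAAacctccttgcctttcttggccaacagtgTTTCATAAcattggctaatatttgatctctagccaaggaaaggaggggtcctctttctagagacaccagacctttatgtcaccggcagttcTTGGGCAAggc
Itgam: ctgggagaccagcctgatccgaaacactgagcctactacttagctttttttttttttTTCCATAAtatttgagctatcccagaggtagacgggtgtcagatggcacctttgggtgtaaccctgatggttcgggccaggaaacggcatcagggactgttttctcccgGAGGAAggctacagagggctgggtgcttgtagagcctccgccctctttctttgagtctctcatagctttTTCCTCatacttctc
TTNNGNAA was found in the windows of 6 of the 7 genes, the exception being Camp, against 36.8% of all 32851 RefSeq windows of this length. GAGGAA was in 3 of the 7, those of S100a8, Ltf and Itgam, against 23.3% of all windows. A TATAAA match stood only in the S100a8 window among the 7, just before the start, against 12.4% of all windows. These matches describe letters and are not binding sites shown by these data.

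All 8 transcripts were scarce in liver. Values per library are CPM, the read counts scaled to library size after TMM normalization, and levels between genes are given as FPKM, which is per length. The median FPKM over all libraries was 1.36 for S100a9 and 1.16 for S100a8, the most abundant of the 8 per length. It was 0.354 for Itgam, 0.184 for Retnlg and 0.184 for Mmp9, and 0.0188 for Ngp, 0.0091 for Ltf and 0 for Camp. In reads, S100a9 had 3 to 324 counts per library (median 28), S100a8 2 to 262 (median 18), Itgam 18 to 471 (median 62) and Mmp9 4 to 78 (median 20). No library was at 0 for these 4 genes. Retnlg had 0 to 54 counts (median 5) and was at 0 in 9 libraries. Ngp was at 0 in 77 libraries, Ltf in 67 and Camp in 108, so these 3 granule genes were detected in part of the livers only. A count of 0 in these libraries, of 32025244 to 57151736 reads (median 38663519), allows a level of up to 0.049 to 0.109 CPM; such limits cover counting error only.

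Of other neutrophil genes, some were at or near 0 in most libraries and some were measured in every library. Ly6g, whose antigen defines mouse neutrophils in flow cytometry, was at 0 in 160 libraries, with a highest level of 0.058 CPM. The primary granule genes Mpo and Elane were at 0 in 102 and 52 libraries, with highest levels of 1.08 and 0.295 CPM. The G-CSF receptor gene Csf3r was measured in every library (0.923 to 8.07 CPM, median 2.42), as was the chemokine receptor gene Cxcr2 (0.145 to 1.77 CPM, median 0.470). The tissue label held, in that the hepatocyte gene Alb ran from 38340 to 117400 CPM. Htt itself averaged 21.6, 21.2 and 18.3 CPM in Q175 and 29.8, 31.6 and 28.9 CPM in Q20 at 2, 6 and 10 months. In bulk tissue fewer cells of a type and less RNA per cell cannot be told apart.

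Over the 21 groups, the mean level of S100a9 ran from 0.359 ± 0.177 CPM (SD, n = 8) in WT at 2 months to 2.70 ± 3.22 CPM (n = 7) in Q80 at 10 months. S100a8 had the same lowest and highest group, at 0.225 ± 0.128 and 2.02 ± 2.64 CPM. After Q80 at 10 months, S100a9 was next highest in Q20 at 6 months (1.92 ± 0.958 CPM), WT at 6 months (1.90 ± 0.965), Q175 at 10 months (1.89 ± 2.73) and Q92 at 10 months (1.70 ± 1.41). The SD exceeded the mean in Q20, Q80 and Q175 at 10 months, where 1 mouse of each group stood far above the rest. Itgam and Mmp9 were highest in Q20 at 6 months, at 4.04 ± 2.95 and 0.938 ± 0.296 CPM. Ngp and Camp were highest in Q175 at 10 months (0.262 ± 0.703 and 0.0680 ± 0.183 CPM) and Ltf in Q111 at 10 months (4.93 ± 10.7 CPM). When the 21 means of a gene were put in order, every one of the 20 neighbouring pairs lay within the larger SD of the pair, for each of the 8 genes.

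**Figure D1:**
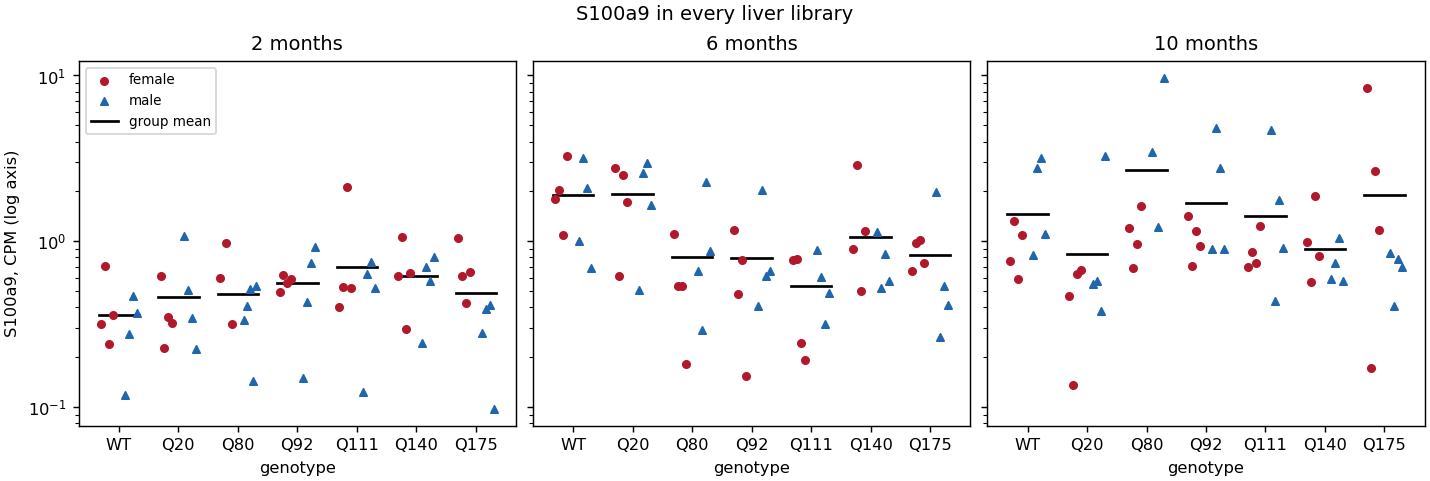
S100a9 in every liver library, in CPM on a log axis, by genotype at 2, 6 and 10 months; circles are females, triangles males and lines the group means. At 6 months WT and Q20 have means of 1.90 and 1.92 CPM and the 5 longer alleles 0.538 to 1.06 CPM, while at 10 months Q80 M3 (9.70 CPM) and Q175 F1 (8.38 CPM) stand far above the rest.

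At 6 months, a long repeat was compared with a short one within the knock-in series. The numbers that end the library names, where given, fall in separate ranges for Q175 and Q20. Genotype and whatever the range stands for cannot be told apart here. S100a8, S100a9, Retnlg, Ngp, Mmp9 and Itgam, all 6 of the members with enough counts to be tested, fell in Q175 livers relative to Q20 livers, by 1.03 to 2.61 on the log2 scale. Of all 15640 genes tested, 10.9% passed in either direction and 6.45% as lower. The median log2 fold change was −1.40 over the 6 and −0.01 over all genes tested. Retnlg and Ngp passed the low-count filter through the groups where they were high, so their part in this count is not independent of their level in Q20. The same limit holds for their calls in the other comparisons at 6 months. Tests are edgeR's quasi-likelihood F test with sex in the model and Benjamini-Hochberg adjustment over all genes tested at the age, and a gene passed at an adjusted p under 0.05.

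S100a8 had 0.191 CPM at the lowest, 0.317 at the median and 1.30 at the highest in Q175 livers, against 0.333, 1.37 and 1.62 CPM in Q20 livers. Most Q175 mice lay below most Q20 mice; the Q175 male M1 stood high among its group, and the Q20 female F2 and male M1 stood low, so the groups overlapped. The log2 fold change was −1.33 ± 0.41 (SE; adjusted p = 0.0262). Its partner S100a9 had 0.267, 0.699 and 1.99 CPM in Q175 livers and 0.511, 2.12 and 2.97 CPM in Q20 livers. The same Q175 male was the highest of its group and the same Q20 mice the lowest of theirs. The log2 fold change was −1.25 ± 0.42 (adjusted p = 0.0433).

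Retnlg separated the groups more. It had 0, 0.091 and 0.154 CPM in Q175 livers and 0.133, 0.342 and 0.506 CPM in Q20 livers, a log2 fold change of −1.90 ± 0.43 (adjusted p = 0.00396). Only the Q20 male M1 lay below the highest Q175 mouse. The granule gene Ngp was at 0 in 5 of 8 Q175 libraries, with a highest level of 0.160 CPM, and at 0 in 2 of 8 Q20 libraries, with a highest level of 0.714 CPM. In Q20 the reads came mostly from the females F1, F3 and F4, with 18, 32 and 33 counts, against 0 to 4 in the other 5 mice. Its log2 fold change was −2.61 ± 0.68 (adjusted p = 0.00885). Camp and Ltf, the other secondary granule genes of the 8, were too scarce to be tested: both were at 0 in 6 of 8 Q175 libraries and in 4 of 8 Q20 libraries.

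The gelatinase gene Mmp9 had 0.130, 0.347 and 0.829 CPM in Q175 livers and 0.644, 0.857 and 1.44 CPM in Q20 livers, with a log2 fold change of −1.03 ± 0.26 (adjusted p = 0.00776). The Q175 mice F2, F4 and M1 lay inside the Q20 range. The integrin gene Itgam had 0.649, 1.37 and 2.23 CPM in Q175 livers and 1.49, 2.53 and 9.16 CPM in Q20 livers, with a log2 fold change of −1.48 ± 0.23 (adjusted p = 0.000256). The Q20 females F1, F4 and F3 carried 9.16, 7.48 and 5.47 CPM of Itgam, and no other library at 6 months reached the lowest of these values.

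**Figure D2:**
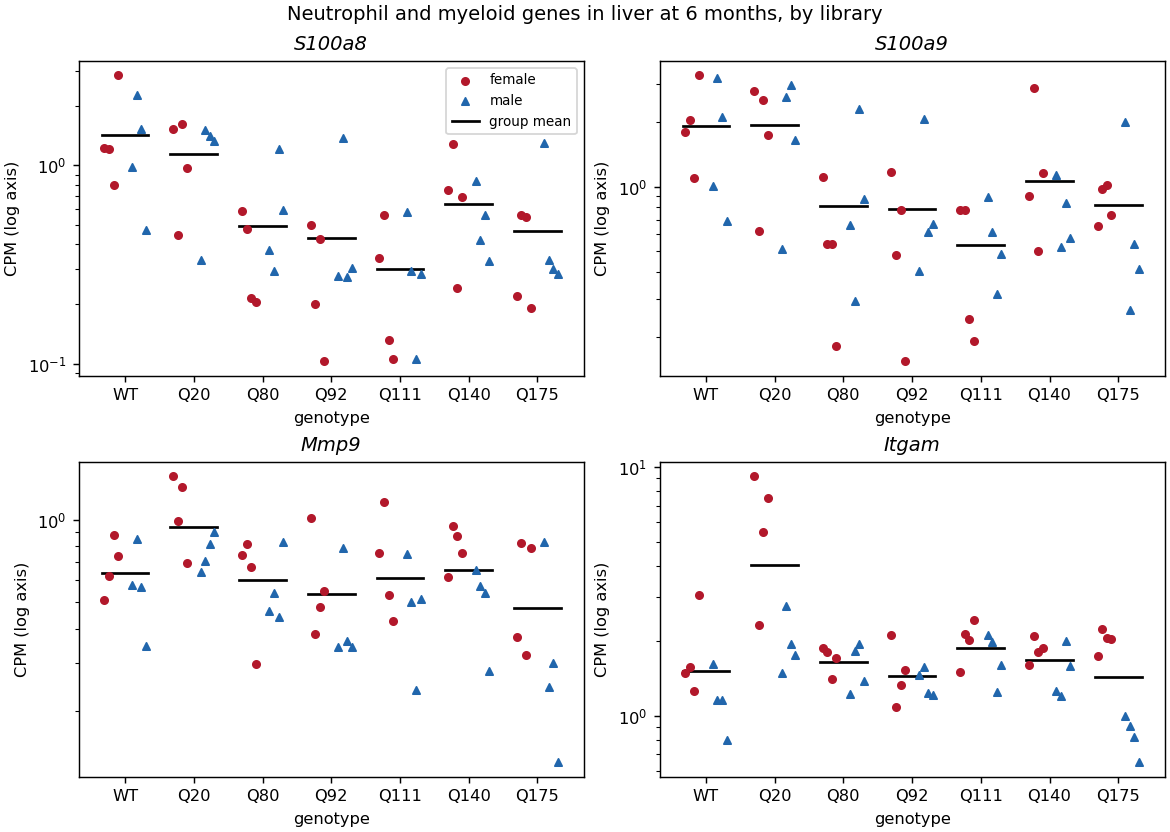
S100a8, S100a9, Mmp9 and Itgam at 6 months in each library, in CPM on log axes, by genotype; circles are females, triangles males and lines the group means. S100a8 and S100a9 are high in WT and Q20 and lower in the longer alleles, whereas Itgam is high only in 3 Q20 females (5.47 to 9.16 CPM).

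These 3 Q20 females stood apart in other myeloid genes too. They had 41.7 to 62.3 CPM of Adgre1, which encodes the macrophage antigen F4/80, where the other 5 Q20 mice had 15.5 to 25.9 CPM. Csf3r reached 6.52 to 8.07 CPM in them and 2.53 to 4.14 CPM in the other 5, and Mpo 0.743 to 1.08 CPM in them and at most 0.0235 CPM in the other 5. The summed level of 12 Kupffer cell markers ran from 123 to 541 CPM in Q175 (median 444) and from 370 to 1142 CPM in Q20 (median 559). Of these 12 markers, all tested, 10 fell in Q175 relative to Q20, with a median log2 fold change of −0.82, among them Adgre1 (−1.27 ± 0.29, adjusted p = 0.00442) and the growth factor receptor gene Csf1r (−1.06 ± 0.24, adjusted p = 0.00439). The sum of 6 monocyte markers was 4.59 to 8.41 CPM in Q175 and 6.07 to 16.3 CPM in Q20, and 2 of the 6 fell. Of other cell types, 3 of 6 endothelial and 2 of 6 stellate cell genes fell, 1 of 6 hepatocyte genes rose and 1 fell, and no muscle gene was tested. None of 5 B cell, 7 T and NK cell, 6 red cell, 3 platelet, 1 eosinophil and 5 bile duct markers that were tested passed in this comparison. The part of macrophages or monocytes in the members' differences was not tested.

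With Q20 F1, F3 and F4 left out, none of the 7 members then tested passed (smallest adjusted p = 0.115), and 4 of the 7 had an unadjusted p under 0.05. Of all genes 13 passed, against 1699 with them. The fold changes of S100a8 (−1.03), S100a9 (−0.98), Retnlg (−1.73) and Mmp9 (−0.94) stayed within 1 SE of those with all 8 Q20 mice. Those of Itgam (−0.68) and Ngp (−0.33) moved by more than 1.5 times. With single libraries left out in turn, Retnlg, Ngp, Mmp9 and Itgam passed in all 16 such fits. S100a8 passed in 12, failing without Q175 M3, Q175 M4, Q20 F1 or Q20 F3 (adjusted p up to 0.0633). S100a9 passed in only 5 of the 16 (adjusted p up to 0.098), failing when any 1 of 6 Q175 mice or 5 Q20 mice was left out. It also did not pass with no low-count filter (adjusted p = 0.0649), with the older edgeR method (0.0575) or with limma on FPKM (0.0729), where Ngp was at 0.055.

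**Figure D3:**
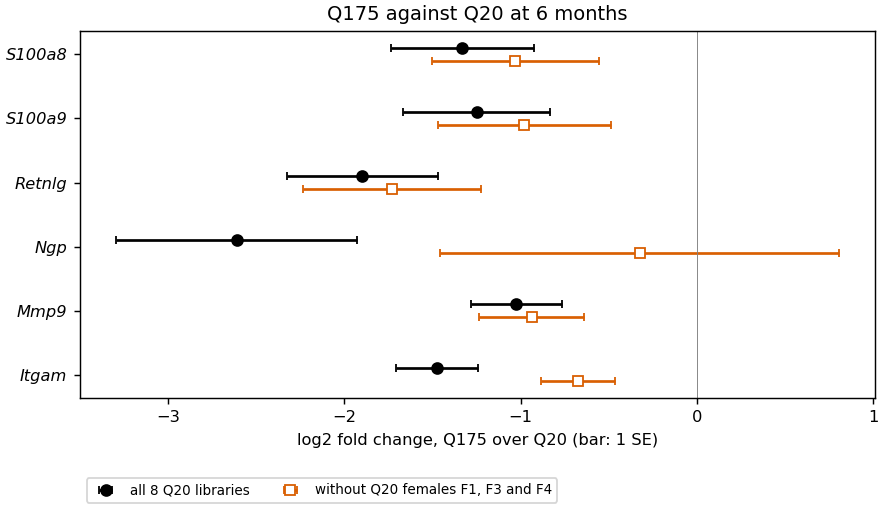
Log2 fold change of Q175 over Q20 at 6 months for the 6 members tested, with bars of 1 SE; filled circles use all 8 Q20 libraries and open squares leave out the females F1, F3 and F4. Without them no member passed; the calprotectin genes, Retnlg and Mmp9 then lie between −1.73 and −0.94, Itgam at −0.68 and Ngp at −0.33.

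The differences from Q20 at 6 months were not confined to Q175. All 6 members tested fell in Q92 livers (18% of all genes passed), 5 fell in Q111 (1.24%) and in Q80 (9.3%), and 2, Ngp and Itgam, fell in Q140 (5.98%). S100a8 averaged 0.496 ± 0.325 CPM in Q80, 0.432 ± 0.399 in Q92, 0.301 ± 0.191 in Q111, 0.640 ± 0.333 in Q140 and 0.468 ± 0.364 in Q175 (SD, n = 8 each), and 1.14 ± 0.504 CPM in Q20. The lowest fold changes for the calprotectin genes were those of Q111, −1.93 ± 0.44 for S100a8 (adjusted p = 0.0215) and −1.84 ± 0.44 for S100a9 (adjusted p = 0.033). Those of Q140 were −0.84 ± 0.38 and −0.85 ± 0.40 and did not pass (adjusted p = 0.18 and 0.2). The member that did not pass in Q80 and in Q111 was Mmp9 (−0.64, adjusted p = 0.0828, in Q80 and −0.63, adjusted p = 0.154, in Q111). All 5 comparisons share the Q20 livers. Only Q92 shares the number range of the Q20 library names, so for the other lines genotype and range cannot be told apart. Retnlg and Ngp passed the low-count filter through the groups where they were high, so their calls here are not independent of that level. With Q20 F1, F3 and F4 left out no member passed in any of the other 4 lines, with 3, 5, 4 and 1 of 7 members at an unadjusted p under 0.05 in Q80, Q92, Q111 and Q140.

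Along the 6 knock-in lines at 6 months, the slope per 100 CAG repeats passed for 5 of the 6 members tested (6.27% of all genes): Itgam −0.87 ± 0.15, Ngp −2.16 ± 0.47, Retnlg −1.05 ± 0.27, Mmp9 −0.54 ± 0.16 and S100a8 −0.80 ± 0.26 on the log2 scale. S100a9 had a slope of −0.74 ± 0.26 (adjusted p = 0.0741). Ngp passed the low-count filter here through Q20 libraries where it was high, so its slope is not independent of that level. Ngp was not tested without the Q20 libraries or in males alone. No member passed without the Q20 libraries, where the S100a8 slope was 0.27, without Q20 F1, F3 and F4, or in males alone, and 1 passed with the number range of the library names as a covariate. The S100a8 slope passed under none of the 10 other settings tried. The library names of the 6 lines fall in 3 number ranges, a pair of lines in each, which share whatever the range stands for. In 2 of these pairs no member passed: 0 of 6 for Q175 against Q80 (2.34% of all genes; 0 members at an unadjusted p under 0.05) and 0 of 6 for Q140 against Q111 (2.27%; 3 members, S100a8, S100a9 and Retnlg, at an unadjusted p under 0.05 and higher in Q140). In the third, Q92 against Q20, all 6 members fell, as given above.

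Wild-type livers of 6 months gave a second view, with a limit. At that age the names of the knock-in libraries have another form than those of WT and than all names at 2 and 10 months, so genotype and whatever the name form stands for cannot be told apart between WT and knock-in mice. Of all genes 32.2% passed for Q20 against WT at 6 months, while 0% did at 2 months and 0.0127% at 10 months. Within that limit, S100a8 fell in all 5 longer alleles relative to WT, S100a9 in 4 and Retnlg in 3, in comparisons that share the WT livers. In Q175 against WT (25.9% of all genes) 3 of 6 members fell: S100a8 by 1.62 ± 0.40 (adjusted p = 0.00168), Retnlg by 1.60 ± 0.44 (adjusted p = 0.00501) and S100a9 by 1.21 ± 0.42 (adjusted p = 0.0256) on the log2 scale. S100a8 had 0.191, 0.317 and 1.30 CPM in Q175 (lowest, median, highest), against 0.475, 1.21 and 2.84 CPM in WT, and the groups overlapped by the Q175 male M1 and the Q175 females F2 and F3. S100a9 did not pass without WT F4, WT M2 or Q175 M2 (adjusted p up to 0.0623), while S100a8 and Retnlg passed in all 16 fits that left out 1 mouse.

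In Q175 against WT the calprotectin genes passed and Itgam did not. Itgam had 0.649, 1.37 and 2.23 CPM in Q175 and 0.800, 1.37 and 3.06 CPM in WT, with a log2 fold change of −0.10 that did not pass. In Q20 against WT (32.2% of all genes), Itgam was the 1 of 6 members tested that passed. It rose by 1.37 ± 0.23 (adjusted p = 6.88e-06), or by 0.59 ± 0.21 (adjusted p = 0.034) with Q20 F1, F3 and F4 left out. S100a8 (−0.29), S100a9 (0.04), Retnlg (0.30), Mmp9 (0.56) and Ngp (1.10) did not pass there. In the other lines against WT, 2 members fell in Q80 (19% of all genes), S100a8 by 1.52 and S100a9 by 1.23, 3 in Q92 (22.4%), 4 in Q111 (26.7%) and 1, S100a8 by 1.13, in Q140 (27.7%). The 4 in Q111 were S100a8 (−2.21), S100a9 (−1.80), Retnlg (−1.44) and Ngp. The counts of 1 of 6, in Q20 and in Q140, are below the share of all genes that passed in either direction.

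The other neutrophil lists were counted in the same way for Q175 against Q20 at 6 months. Of 13 receptor genes 7 were tested and 5 fell (median −0.93), among them Csf3r (−0.998 ± 0.20, adjusted p = 0.00172) and the formyl peptide receptor genes Fpr1 (−0.93) and Fpr2 (−0.94). Of 8 further secondary granule genes 5 were tested and 1 fell, the lysozyme gene Lyz2 (−0.95 ± 0.21, adjusted p = 0.00326), which macrophages share. Of 5 primary granule genes 1 was tested, Prtn3 (−0.43), and it did not pass.

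Among 12 genes of signals that recruit neutrophils, 7 were tested and 2 fell, Il1b (−1.56 ± 0.37, adjusted p = 0.00605) and Il1a (−0.94 ± 0.27, adjusted p = 0.0168). The chemokine genes Cxcl1 (−1.83 ± 0.68, adjusted p = 0.0678) and Cxcl5 (−1.64 ± 0.77, adjusted p = 0.155) did not pass. Of 8 adhesion genes 3 fell, Itgb2 (−0.98), the partner chain of Itgam, Itgal (−0.94) and Vcam1 (−0.68). Of 6 partners of the members' products 2 fell, the calprotectin receptor gene Tlr4 (−1.08) and its co-receptor gene Cd14 (−0.98). Of 6 granulopoiesis factor genes 5 were tested and 1 fell, Spi1 (−0.75), which encodes PU.1. None of 9 acute phase genes passed. With Q20 F1, F3 and F4 left out no gene of any of these lists passed. Of all 15640 genes tested, 25.9% passed for Q175 against WT at 6 months, and 1974 genes passed as lower. That comparison has the limit of the library names given above. In it, 1 of 7 receptor genes was lower (Cxcr2, −0.78 ± 0.24, adjusted p = 0.0129). Of recruiting signals 1 of 7 was lower (Il1b, −1.02), and none of the 12 Kupffer genes was called. The counts of 1 of 7 are near the share of all genes that passed as lower in this comparison. There 4 of 9 acute phase genes fell: Saa3 (−3.91), Saa1 (−5.40), Saa2 (−5.90) and Orm2 (−2.92).

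The comparison was also made within each sex at 6 months. In a fit with a term for each genotype and sex, Itgam (−1.61) and Ngp (−2.75) fell in Q175 relative to Q20 in females, where 5.32% of all genes passed. In males Retnlg (−2.57) and Itgam (−1.25) fell, and 6.45% of all genes passed. The fold changes were below 0 for all 6 members in both sexes. The difference between the sexes passed for 0 of 6 members (0.16% of all genes; 0 at an unadjusted p under 0.05). For Itgam that difference was −0.37 ± 0.40 and for S100a8 −0.44 ± 0.85, so a difference as low as the S100a8 change itself (−1.33) lies within 2 SE.

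At the other ages no member passed between Q175 and Q20. At 2 months 4 members had enough counts, S100a8, S100a9, Mmp9 and Itgam, and none passed (0.31% of all genes; 0 at an unadjusted p under 0.05; 0 of 8 tested by DESeq2). Their log2 fold changes were −0.24 ± 0.38, 0.08 ± 0.39, 0.01 ± 0.27 and 0.09 ± 0.19. S100a8 had 0.130, 0.313 and 0.507 CPM in Q175 and 0.197, 0.314 and 0.858 CPM in Q20 at 2 months, and the ranges overlapped nearly throughout. None passed for Q20 against WT (0% of all genes), Q175 against WT (0.595%) or the CAG slope (0.272%), with 0 members at an unadjusted p under 0.05 in each. DESeq2, run for the first and the last of these, also called 0.

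At 10 months all 7 members tested had higher fitted levels in Q175 than in Q20, with a median log2 fold change of 1.08, and none passed (1.26% of all genes; 2 at an unadjusted p under 0.05; 0 by DESeq2). The values were 1.08 ± 0.63 for S100a8 (adjusted p = 0.465), 1.30 ± 0.60 for S100a9 (adjusted p = 0.318), 1.06 ± 0.66 for Retnlg and 2.02 ± 0.84 for Ngp (adjusted p = 0.244). Retnlg, Ngp and Ltf passed the low-count filter at 10 months through libraries where they were high. Their values and their part in the 7 are not independent of that level. Only 6 members were tested without the Q175 female F1. A single mouse stood apart. The Q175 female F1 had 8.38 CPM of S100a9, where the other 7 Q175 mice had 0.172 to 2.67 CPM and the 8 Q20 mice 0.137 to 3.27 CPM. It also had 2.00 CPM of Ngp, 0.522 of Camp and 1.42 of Ltf, and it was the highest of all libraries for Ngp and Camp. Without it and the Q80 male M3, the fold changes were 0.03 for S100a8, 0.30 for S100a9 and −1.78 for Ngp, and none passed.

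The Q80 male M3 of 10 months was the highest of all libraries for S100a8 (7.85 CPM), S100a9 (9.70), Retnlg (1.62) and Mmp9 (1.83), and it had 0.0599 CPM each of Ngp, Camp and Ltf, lower than in Q175 F1 for each of these 3 secondary granule genes. Neither Q20 against WT (0.0127%), Q175 against WT (1.38%) nor the CAG slope (0.595%) gave a call for a member at 10 months, with 0 members at an unadjusted p under 0.05 in each. DESeq2, run for the first and the last of these, also called 0.

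The change of the Q175 difference with age was tested directly. Against 2 months, the Q175 minus Q20 difference at 6 months was lower for Itgam, by 1.56 ± 0.35 on the log2 scale (adjusted p = 0.0185; 0.154% of all genes passed), and it passed for no other member. Against 10 months it was lower for 5 of 7 members (9.18% of all genes): −2.33 for S100a8, −2.43 for S100a9, −2.93 for Retnlg, −4.62 for Ngp and −1.83 for Itgam. Retnlg and Ngp were tested in this fit through the older groups where they were higher, so their calls are not independent of that level. With Q20 F1, F3 and F4 left out, no member passed against 2 months (1 at an unadjusted p under 0.05) and Retnlg alone passed against 10 months (−2.69 ± 0.73, adjusted p = 0.0311). Without the Q175 female F1 and Q80 male M3 of 10 months, Retnlg (−2.38) and Itgam (−1.72) passed against 10 months.

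**Figure D4:**
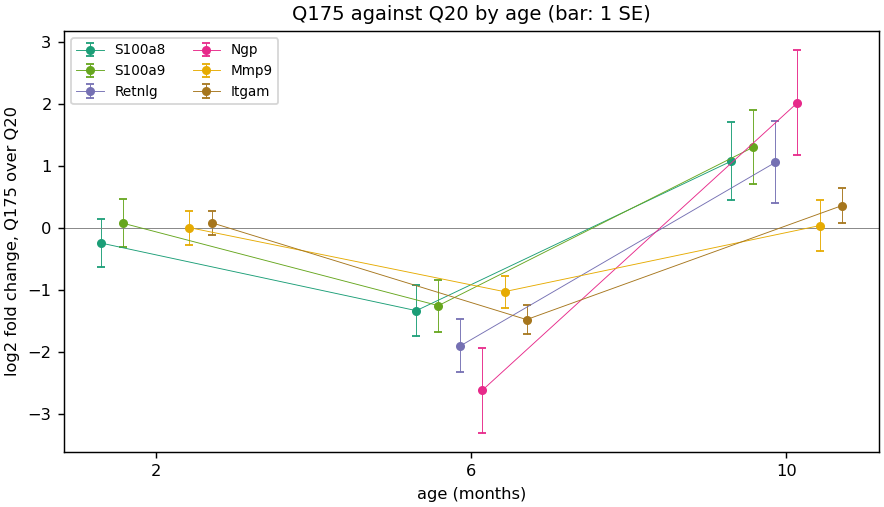
Log2 fold change of Q175 over Q20 at 2, 6 and 10 months, with bars of 1 SE; points of a month are shifted sideways so that genes can be seen, and Retnlg and Ngp were not tested at 2 months. The 4 genes tested lie between −0.24 and 0.09 at 2 months, all 6 lie between −2.61 and −1.03 at 6 months, and all 6 lie above 0 at 10 months, where none passed.

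Age was compared over all genotypes, with a limit. The library names of 2 and of 10 months carry numbers from separate ranges. Age and whatever the range stands for cannot be told apart. In an average over the 7 genotypes, S100a8, S100a9, Mmp9 and Itgam, the 4 members that passed the low-count filter at 2 months alone, rose at 10 months relative to 2 months, where 26.8% of all 16235 genes passed in either direction and 13.8% rose. Retnlg, Ngp and Ltf rose too, but they were tested through the older groups where they were higher, so their calls are not independent of that level. S100a8 rose by 1.60 ± 0.21 on the log2 scale (adjusted p = 1.55e-10), with 0.0546, 0.679 and 7.85 CPM at 10 months and 0.0620, 0.307 and 1.49 CPM at 2 months. S100a9 rose by 1.45 ± 0.20 and Retnlg by 1.38 ± 0.23. The ranges of the ages overlapped for each of these genes, and the highest values of 10 months lay far above any at 2 months.

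The granule genes were also detected in more livers at 10 months. Ngp was at 0 in 18 of 55 libraries at 10 months and in 34 of 56 at 2 months, Camp in 29 of 55 and 42 of 56, and Ltf in 16 of 55 and 31 of 56. Ngp rose by 2.05 ± 0.45 and Ltf by 2.70 ± 0.67 (adjusted p = 0.000712). The Ltf value was 1.42 ± 0.51 (adjusted p = 0.0286) without Q111 F4 and M3 and Q92 F4 of 10 months, its 3 highest libraries of that age. Mmp9 rose by 0.62 ± 0.13 and Itgam by 0.55 ± 0.09, with medians of 0.586 and 1.86 CPM at 10 months and 0.419 and 1.36 CPM at 2 months. All 7 passed also without Q175 F1 and Q80 M3 of 10 months.

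Other lists were counted in the same comparison, where 13.8% of all genes rose. Of 8 further secondary granule genes 7 were tested and 6 rose, among them Mmp8 (1.44 ± 0.25), Lcn2 (1.40 ± 0.35) and Chil3 (1.15 ± 0.27). Of 13 receptor genes 10 were tested and 6 rose, among them Clec4d and Clec4e (1.27 each). The primary granule gene Prtn3 rose by 1.78 ± 0.46, and the chemokine genes Cxcl1 and Cxcl5 by 1.55 ± 0.25 and 1.73 ± 0.41. Of other cell types, 5 of 6 monocyte genes, 5 of 5 B cell genes (Ighm by 2.59 ± 0.20) and 4 of 6 red cell genes rose. Of 12 Kupffer genes 1 rose, which is below the share of all genes. The part of these cells in the members' rise was not tested.

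In WT, the rise was present by 6 months for the calprotectin genes, with a like limit. The WT library names of 2 and 6 months also carry numbers from separate ranges, which cannot be told apart from age. S100a8 had 0.475, 1.21 and 2.84 CPM at 6 months and 0.0897, 0.208 and 0.472 CPM at 2 months, so that every WT mouse of 6 months lay above every WT mouse of 2 months. It rose by 2.63 ± 0.56 (adjusted p = 0.00247; 2.78% of all genes passed). S100a9 rose by 2.38 ± 0.54 (adjusted p = 0.00482) and Retnlg by 2.03 ± 0.57 (adjusted p = 0.0315), and Retnlg did not pass without WT F2 or WT F4 (adjusted p up to 0.0868). Retnlg was tested in this fit through the older groups where it was higher, so its call is not independent of that level. The other 4 members tested did not pass. Of 9 acute phase genes, which hepatocytes make in inflammation, 6 rose in the same comparison, with a median log2 fold change of 3.29.

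Females had more of some members than males. Itgam was higher in females at 2 months (0.49 ± 0.10; 57.6% of all genes passed), at 6 months (0.63 ± 0.13; 60.9%) and at 10 months (0.43 ± 0.15; 57.2%). Mmp9 was higher in females at 2 months (0.41 ± 0.14) and at 6 months (0.46 ± 0.14). Ngp was higher in females at 6 months, by 2.29 ± 0.46 (adjusted p = 1.22e-05), and by 1.60 ± 0.47 (adjusted p = 0.00276) with Q20 F1, F3 and F4 left out. Ngp passed the low-count filter at that age through female libraries where it was high, so this call is not independent of that level. The highest male at 6 months, Q80 M3, had 0.147 CPM of Ngp, and the highest female, Q20 F4, had 0.714 CPM. S100a8, S100a9 and Retnlg passed at no age. These counts, 2 of 4, 3 of 6 and 1 of 7 members at 2, 6 and 10 months, are below the share of all genes that differed by sex in liver. At 6 months all 12 Kupffer genes were higher in females too, and Prtn3 was lower (−1.96 ± 0.49).

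Ltf followed another pattern than the other granule genes. In Q111 at 10 months it had 0 CPM in 3 libraries, 0.0336, 0.197 and 0.315 CPM in 3 others, 8.55 CPM in the female F4 and 30.4 CPM in the male M3. The 8 Q20 libraries had 0 to 0.109 CPM. Ltf rose by 6.92 ± 1.07 in Q111 relative to Q20 (adjusted p = 3.75e-05), the one member of 7 that passed (1.11% of all genes). It passed the low-count filter through libraries where it was high, so this call is not independent of that level. Without the male M3 the fold change was 4.92 ± 1.07 (adjusted p = 0.0678), and without M3 and F4 it was 1.24 ± 1.35 (adjusted p = 0.867).

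These libraries also carried bile duct genes. The keratin gene Krt19, which bile duct and gallbladder epithelium express, was at 63.8 CPM in Q111 M3 and at 10.7 CPM in F4, and at 0.524 to 9.83 CPM in the other 6 Q111 mice. Krt19 and Krt7 rose in Q111 relative to Q20 at 10 months (3.66 ± 0.74 and 1.65 ± 0.43), 2 of 5 bile duct genes tested, and the other neutrophil members did not. In the same comparison Olfm4 (6.25 ± 1.01), Pglyrp1 (3.55 ± 0.81) and the chemokine gene Cxcl5 (4.60 ± 0.82) rose, as did 2 of 3 eosinophil and mast cell genes, among them Cpa3 (2.92 ± 0.72). Without the male M3 no gene passed as higher in this comparison and 1 passed as lower, against 161 higher and 13 lower with it. Of the 4 libraries with the most Ltf, Q111 M3, Q111 F4, the Q111 female F1 of 6 months (5.12 CPM) and the Q92 female F4 of 10 months (2.22 CPM), all had at least 10.7 CPM of Krt19. The fifth, the Q175 female F1 of 10 months with 1.42 CPM, had 0.898 CPM of Krt19 and was the library with the most Ngp and Camp. The Q92 female F3 had 16.2 CPM of Krt19 with 0.0277 CPM of Ltf. Spearman's rho between Ltf and Krt19 was 0.0725 over all libraries and 0.279 after centring on genotype, age and sex. The part of biliary epithelium in the Ltf values was not tested.

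**Figure D5:**
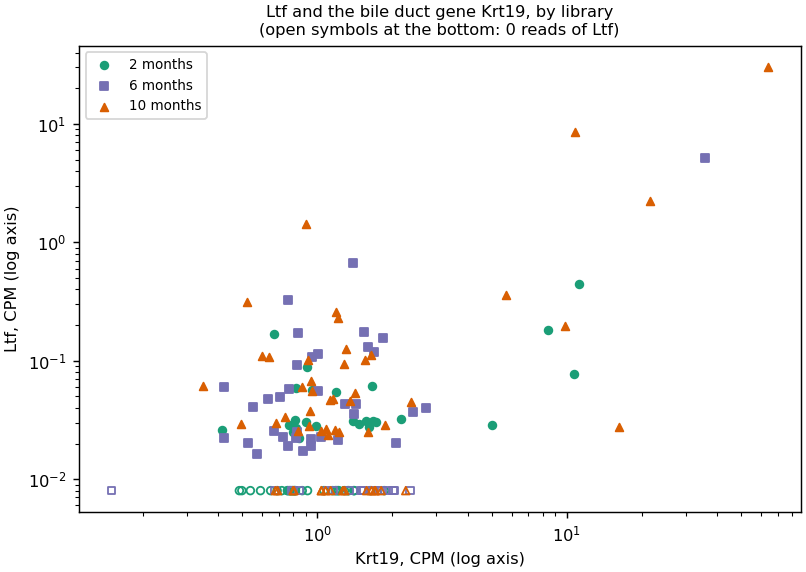
Ltf against the bile duct gene Krt19 in each library, in CPM on log axes, coloured by age; open symbols at the bottom are libraries with 0 reads of Ltf. The 4 libraries highest in Ltf (2.22 to 30.4 CPM) have 10.7 to 63.8 CPM of Krt19, and most others lie below 1 CPM of Ltf at about 1 CPM of Krt19.

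The 8 genes did not vary as a unit across mice. Spearman's rho of S100a8 with S100a9 was 0.866 over all libraries and 0.850 after centring on genotype, age and sex. S100a8 and Retnlg had 0.681 and 0.572, S100a9 and Retnlg 0.660 and 0.596, Mmp9 and Itgam 0.563 and 0.465, and Ngp and Camp 0.539 and 0.483. The lowest pair was Retnlg with Camp, at 0.036 and 0.0958. Itgam went with the macrophage gene Adgre1 (0.653 and 0.677) and with Itgb2 (0.798 and 0.737), whereas S100a8 with Adgre1 had 0.0788 and 0.221. S100a8 went with Csf3r (0.638 and 0.666) and less with Cxcr2 (0.349 and 0.550) and the acute phase gene Saa1 (0.375 and 0.477). These are descriptions across mice that share libraries and depth, and the scarce genes have many ties at 0.

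The genes whose levels were most like the mean standardized level of the 8, out of 13941 ranked over all libraries after the same centring, were Csf3r (rho 0.762), Tlr2 (0.624), Fgr (0.602), Slfn4 (0.598), Ctsc (0.597), Orm2 (0.594), Ptprc (0.592), Pmaip1 (0.591), Mpeg1 (0.585) and AB124611 (0.584). By that mean level the highest 5 libraries were Q175 F1 and Q80 M3 of 10 months and Q20 F1, F4 and F3 of 6 months.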

How the data were processed

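Per the labels' protocols, polyA RNA of mouse livers was read on HiSeq machines. CASAVA 1.8.2 is named in the submitters' processing notes, and an aligner, counter, annotation or genome build is not stated there. Expected counts and FPKM values, as deposited by the authors, cover 39179 genes; 14.1% of the count values were not whole, and all were rounded. Gene IDs were named with GENCODE M21, which matched 37607, while 1572 had no match. Library totals were 32025244 to 57151736 counts (median 38663519), and no 2 libraries were identical.

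The counts were tested with the quasi-likelihood F test of edgeR 4.0.16 in R 4.3.3, with TMM scaling, its own filter on low counts by genotype, sex and age, and Benjamini-Hochberg adjustment over all genes tested, at a threshold of 0.05. Each age was fitted with 7 genotypes and sex; age contrasts and interactions came from 1 fit of all libraries. SE is the log2 fold change divided by the root of F. Alternatives were DESeq2 1.42.0, another normalization, no filter, the older edgeR method, each sex alone, a replicate block, libraries left out, and limma 3.58.1 on the deposited FPKM values as log2(FPKM + 0.1). Scripts were tested on simulated data. The sample titles name mice by sex and number, and most library names add a code that was not a term in the fits. The p-values measure the spread between these mice.

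All 8 members are named; of each other list up to 4 genes with the smallest p are named. One further list fixed with these is not reported here. Lists overlap: Lcn2 and Hp are both secondary granule and acute phase genes, and Ppbp is both a recruiting signal and a platelet gene. Likeness was ranked among genes whose log2 CPM averaged −2 or more. The members and lists were chosen with earlier results of these data known.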

Additional observations from a re-analysis of the deposited data

Results flagged for a closer look

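Single libraries stood far above the rest of their group in 37 of the 114 groups of values tested, all on the high side; groups whose highest count was under 10 were not tested, and chance alone gives about 1 in 20. All values that follow are CPM of the library named.

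At 10 months, Q175 F1 had 6.32 of S100a8, 8.38 of S100a9, 2.00 of Ngp, 0.522 of Camp and 1.42 of Ltf, and Q80 M3 had 7.85 of S100a8, 9.70 of S100a9 and 1.62 of Retnlg. Q20 M4 had 2.54 of S100a8, 3.27 of S100a9 and 0.491 of Retnlg. Q111 M1 had 4.72 of S100a9 and 0.629 of Ngp, and Q140 F3 had 1.86 of S100a9 and 1.60 of Mmp9. WT M3 had 0.406 of Ngp, Q92 M2 had 1.17 of Retnlg, and Q92 F1 had 4.35 of Itgam. Ltf stood out in Q111 M3 at 30.4 and in Q92 F4 at 2.22.

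At 6 months, Q175 M1 had 1.30 of S100a8 and 1.99 of S100a9, and Q80 M3 had 1.20 of S100a8 and 2.28 of S100a9. Q92 M2 had 1.37 of S100a8 and 0.315 of Retnlg, Q92 F3 had 0.333 of Ngp, and Q140 F2 had 2.88 of S100a9. Q111 F1 had 5.12 of Ltf, Q20 F4 had 0.324 of Camp, and WT F4 had 3.06 of Itgam. The 3 Q20 females with high Itgam do not appear here for that gene, since the test looks for 1 library apart from all others.

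At 2 months, Q111 F3 had 1.49 of S100a8 and 2.11 of S100a9, Q20 M1 had 0.858 of S100a8 and 1.07 of S100a9, Q140 F2 had 2.97 of Itgam, and WT F3 had 0.449 of Ltf.

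The difference between Q175 and Q20 also differed between ages by the test of the interaction in edgeR. At 6 months against 2 months it was −1.56 for Itgam (log2). At 6 months against 10 months it was −2.33 for S100a8, −2.43 for S100a9, −2.93 for Retnlg, −4.62 for Ngp and −1.83 for Itgam. The part of single libraries in these values and the filter limit for Retnlg and Ngp are given with the comparison of ages.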

How the results depend on the processing

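Counts in this paragraph are members that passed. For Q175 against Q20 at 6 months, 6 passed in all libraries, 2 in females alone, 2 in males alone and 0 without Q20 F1, F3 and F4; leaving out 1 library gave 4 to 6, and DESeq2 called all 4 members to which it gave an adjusted p. Without those Q20 females, Q80 (5 in all libraries), Q92 (6), Q111 (5) and Q140 (2) had 0, and Ngp turned to 0.091 in Q92 and 0.18 in Q140 (log2 fold change); the older edgeR method gave 1 in Q80 and 1 in Q140. The CAG slope at 6 months (5) had 3 by DESeq2, 2 in females, 0 in males, 0 without Q20, 2 without Q175, 0 without the Q20 females and 1 with the number range of the library names as a covariate, and the S100a8 slope turned to 0.27 without Q20. Leaving out 1 library gave 2 to 3 for Q175 against WT at 6 months and for WT at 6 against 2 months, 0 to 1 for Q111 against Q20 at 10 months and 0 for Q175 against Q20 at 2 and 10 months. Without Q111 F4 and M3 the count for Q111 was 0. Sex differences went to 4 (main 2) at 2 months and 5 (main 3) at 6 months with no filter, and to 2 (main 1) at 10 months without Q175 F1 and Q80 M3. The change of the Q175 difference between 6 and 2 months (1) had 0 without the Q20 females; that between 6 and 10 months (5) had 1 without them and 2 without Q175 F1 and Q80 M3. All 7 members that rose at 10 against 2 months did so under the 5 alternatives run. The causes of these changes were not tested beyond the samples or genes left out.

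Over all genes, 1699 passed for Q175 against Q20 at 6 months (10.9%), against 3.89% in females alone, 818 genes in males alone, 1057 with limma on FPKM, 13 without the Q20 females, and 987 to 2039 with 1 library left out. At 10 months 197 passed, against 402 with no filter, 108 with the block, 8 in females alone and 0 with limma on FPKM or with only the 2 groups fitted; at 2 months 47 passed, against 140 by DESeq2, 94 with only the 2 groups, 27 with no filter, 25 with limma, 12 in males and 0 in females. With the replicate number as a block, 5 members passed there (S100a9 adjusted p = 0.051), 4 for the slope at 6 months, and 0 for Q175 against Q20 at 2 and 10 months. The numbers do not pair mice by the labels, and same-numbered mice had correlations over 0.1 in 0, 2 and 3 of 8 pairs at 2, 6 and 10 months. Depth limits Retnlg, Ngp, Camp and Ltf, which had medians of 5, 1, 0 and 1 counts.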

Other observations

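The summed level of the 9 acute phase genes ran from 4436 to 49470 CPM over all libraries, and that of the 8 members from 1.08 to 39.3 CPM. Values of 2 genes of that list are given here, chosen after their values were seen. Saa1, an acute phase gene of hepatocytes, ran from 5.57 to 8285 CPM over all libraries (median 19.1), and Lcn2, which encodes lipocalin 2, from 0.885 to 844 CPM (median 5.05). Both were highest in the Q80 male M3 of 6 months, whose S100a8 level was 1.20 CPM. The Q175 female F1 of 10 months, second of all libraries in S100a8, had 1843 CPM of Saa1 and 416 CPM of Lcn2. The Q80 male M3 of 10 months, highest of all libraries in S100a8, had 592 CPM of Saa1 and 21.2 CPM of Lcn2.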
